A study of Homo sapiens with 12 samples.

Results

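The genes that carry cytarabine into a cell and process it there were followed in OCI-AML2, an established human line from acute myeloid leukaemia. They were the rows of the count table with 9 listed symbols, SLC29A1, DCK, CMPK1, CDA, DCTD, NT5C2, SAMHD1, RRM1 and RRM2, out of 55765 genes in all. All 9 were found, and all 9 passed the filter on low counts, as did 11474 genes in total. The cells were single-cell clones with a doxycycline-inducible MEF2C construct, either wild type (WT) or carrying S222A, a serine-to-alanine change in this transcription factor. The 4 groups of 3 libraries were WT and S222A cells, each kept for 48 h with vehicle (uninduced) or with 600 ng doxycycline (induced) in 3 ml. The cells were in 3 ml, but whether the 600 ng refers to this volume is not stated, nor is the number of clones per construct. No group without a MEF2C construct received doxycycline, so effects of the agent itself and of the construct cannot be told apart. Likewise S222A and clone cannot be told apart between the lines. Whether replicates came from separate cultures is not stated, and the spread that the p-values rest on may be technical. The series title links MEF2C phosphorylation with resistance to chemotherapy. The labels name no cytarabine treatment, and RNA levels are not enzyme activities.

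Cytarabine is a cytidine analogue and a mainstay of treatment for acute myeloid leukaemia. The equilibrative transporter ENT1, encoded by SLC29A1, brings it into the cell, and deoxycytidine kinase (DCK) adds the first phosphate, usually the limiting step of activation. The kinase CMPK1 and nucleoside diphosphate kinases then build the triphosphate, which is incorporated into DNA and stops its synthesis. Cytidine deaminase (CDA) inactivates the nucleoside, deoxycytidylate deaminase (DCTD) acts on the monophosphate, the 5′-nucleotidase NT5C2 dephosphorylates nucleoside monophosphates, and SAMHD1 hydrolyses the triphosphate. Ribonucleotide reductase, with RRM1 as its large and RRM2 as its small subunit, makes the deoxynucleotides that compete with the drug and restrain DCK.

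Sequence upstream of the genes is shown for CDA, the 1 gene of the 9 whose RNA passed the test, and for RRM1, whose window held both kinds of promoter string found among the 9. RefSeq windows of build GRCh38.p14 matched 9 of 9 genes. The stretches below are 5′ to 3′ and end at the RefSeq start of the gene or at the first exon in GENCODE 29, whichever comes first, and capitals mark matches to the motifs searched. The CDA stretch lies at chr1:20588847-20588947 and the RRM1 stretch at chr11:4094435-4094684, both on the plus strand.
CDA: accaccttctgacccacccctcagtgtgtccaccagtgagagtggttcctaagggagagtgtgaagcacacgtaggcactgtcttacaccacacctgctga
RRM1: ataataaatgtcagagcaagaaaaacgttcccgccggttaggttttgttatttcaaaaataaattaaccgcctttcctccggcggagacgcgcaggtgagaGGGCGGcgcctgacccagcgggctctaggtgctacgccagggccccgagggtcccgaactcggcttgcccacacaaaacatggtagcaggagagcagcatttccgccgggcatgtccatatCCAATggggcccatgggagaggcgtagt
The strings GGGCGG (a GC box), CCAAT, TTTGGCGC, TTTCCCGC and TTTCGCGC (E2F-type), TATAAA and the MEF2 consensus were searched on both strands of the 250 bases before the start, annotated exons included. No MEF2 consensus, which 2.89% of 27326 promoter windows of that length held, was found in the windows of the 9 genes. TATAAA and the E2F-type strings were not found in them either (11.1% of all windows for TATAAA and 0.468 to 1.42% for the E2F-type strings). GGGCGG, held by 42.3% of all windows, occurred in DCK 3 times, in DCTD and SLC29A1 2 times each and in RRM1 1 time. CCAAT, held by 33.0%, occurred in RRM2 3 times, in SAMHD1 2 times and in RRM1 1 time. The windows of CDA, CMPK1 and NT5C2 held none of these strings. The NT5C2 window ends at a start that GENCODE 29 does not list for this gene, so its count may not concern the promoter in use.

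Library totals ran from 875710 to 13134791 counts, a 15-fold range, so that 3 counts equalled 0.228 to 3.43 counts per 1e6 counts (CPM). This limit covers counting error only. MEF2C RNA did not separate the groups: its CPM ran from 645.3 to 816.7 in WT uninduced, 674.4 to 844.1 in WT induced, 605.3 to 801.6 in S222A uninduced and 786.3 to 956.1 in S222A induced libraries. Its log2 fold change was 0.08 ± 0.16 (SE) on WT induction and 0.34 ± 0.16 on S222A induction, with edgeR adjusted p of 1 and 0.285. Reads of the construct and of the cell's own gene share 1 row, so MEF2C gives no clear check of the labels. The deepest library of each group stood apart on the first principal component (33.5 to 44.4 against -51.3 to -2.2 for the other 8), and S222A uninduced replicate 3, with 930960 counts, stood alone on the third (-62.5).

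Per kilobase of annotated exon, the level in the median library was highest for RRM1 at 77.5 CPM per kb, then RRM2 at 43.9, SLC29A1 at 39.7, CMPK1 at 38.4, DCTD at 27.8, DCK at 19.8 and CDA at 13.3. NT5C2 at 5.67 and SAMHD1 at 5.0 CPM per kb were lowest. The ranges over the 12 libraries overlapped for RRM2 (37.7 to 55.1), SLC29A1 (24.2 to 71.6) and CMPK1 (21.9 to 51.2). The same holds for every other pair of neighbours in this order except the first, where the lowest RRM1 library (62.3) was above the highest RRM2 library.

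**Figure D1:**
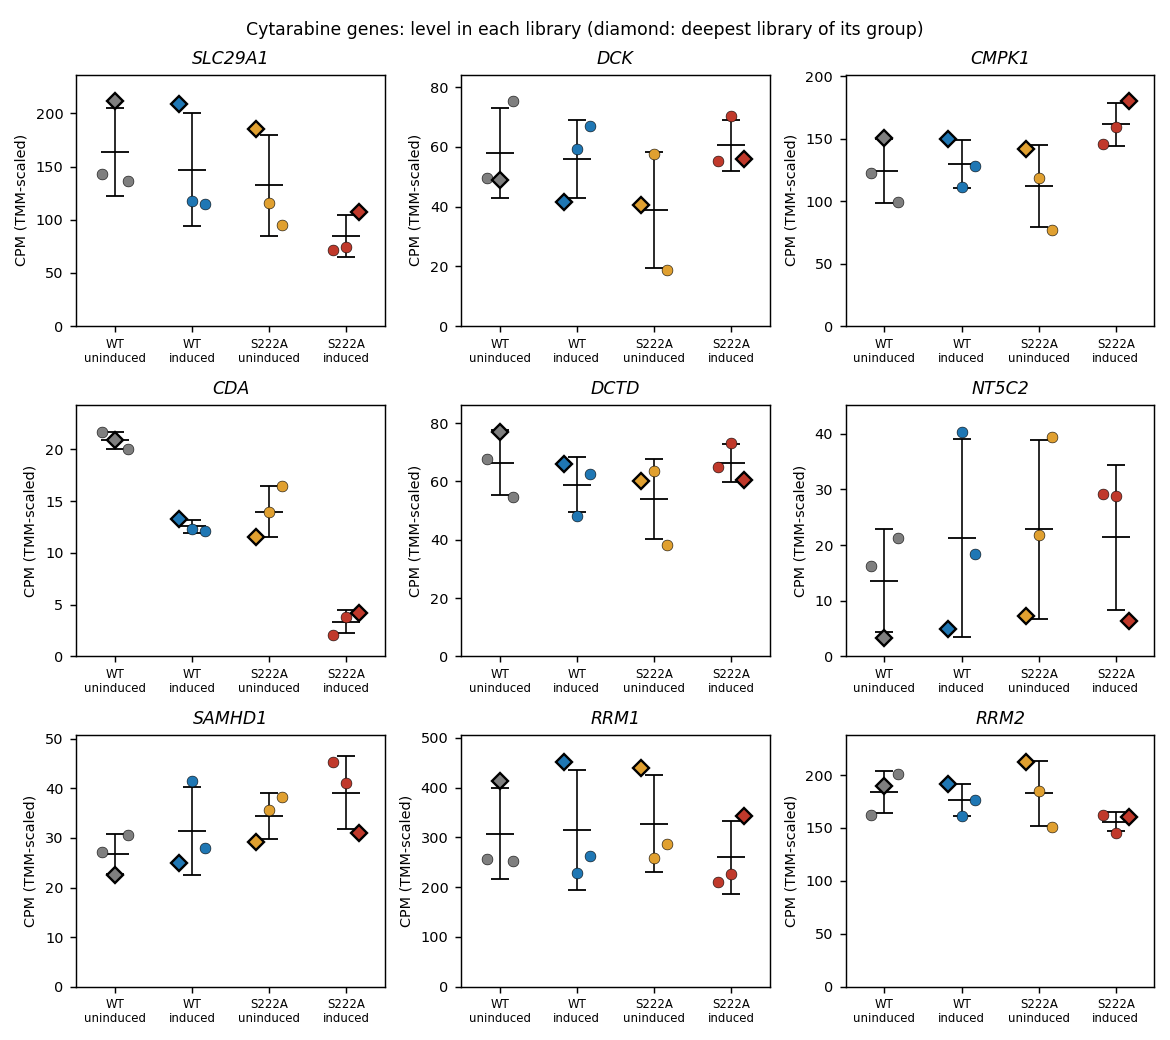
CPM (y axes, linear from 0) of the 9 genes in the 12 libraries by group (x axes), where points are libraries, diamonds are the deepest library of each group, and bars are the mean ± SD of 3. CDA is between 2.08 and 4.22 in S222A induced cells, under every other library, while the diamonds of NT5C2 are lowest in each group.

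Uptake comes first. SLC29A1 was measured at 142.82, 211.11 and 136.45 CPM in WT uninduced and at 208.86, 117.71 and 115 CPM in WT induced libraries. In the S222A line the values were 185.23, 116.15 and 95.27 CPM before and 71.35, 74.7 and 107.13 CPM after induction. The S222A induced libraries lay low, below every WT induced library, and overlapped the S222A uninduced ones. The log2 fold change was -0.66 ± 0.30 (SE) on S222A induction (95% interval -1.31 to -0.01, edgeR adjusted p 0.252) and -0.81 ± 0.30 between the induced lines (-1.46 to -0.16, adjusted p 0.138). Neither passed the threshold of 0.05 over all genes. On WT induction SLC29A1 had a log2 fold change of -0.14 ± 0.30 (adjusted p 1), and the difference between the inductions was -0.52 ± 0.42 (adjusted p 0.941).

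The deepest library was the highest of its group for SLC29A1 in 4 of 4 groups, at 211.11, 208.86, 185.23 and 107.13 CPM. A term for the deepest library of each group was added to the same edgeR model. This term marks those 4 libraries and does not use the library totals. With it SLC29A1 passed on S222A induction (log2 -0.64 ± 0.12, adjusted p 0.000969) and between the induced lines (-0.78 ± 0.12, adjusted p 0.000113). Between the induced lines SLC29A1 also passed in the 8 other libraries alone (-0.67, adjusted p 0.025) and with no filter on low counts (-0.79, adjusted p 0.0145). Without S222A uninduced replicate 1, the deepest of its group, the S222A induction value of SLC29A1 was -0.32 (adjusted p 0.65), and without WT induced replicate 1 the value between the induced lines was -0.46 (adjusted p 0.377).

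DCK, the kinase of the first activating step, showed no called change. It stood at 49.46, 49.06 and 75.17 CPM in WT uninduced, 41.65, 59.41 and 67.11 in WT induced, 40.48, 57.46 and 18.62 in S222A uninduced and 55.41, 70.24 and 55.8 in S222A induced libraries. All 4 groups overlapped, and the lowest value belonged to S222A uninduced replicate 3, the shallow library that stood apart. The log2 fold change of DCK was 0.58 ± 0.31 (SE) on S222A induction (95% interval -0.09 to 1.24, edgeR adjusted p 0.342), and 0.32 without that library. On WT induction it was -0.06 ± 0.31 (-0.72 to 0.61), and between the induced lines 0.12 ± 0.30 (-0.54 to 0.78, adjusted p 0.883).

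CMPK1, which phosphorylates the monophosphates of cytidine and its analogues, was at 122.64, 150.46 and 99.68 CPM in WT uninduced and at 149.96, 110.98 and 128.16 CPM in WT induced libraries. In the S222A line the values were 141.51, 118.61 and 76.66 CPM before and 145.46, 159.65 and 179.67 CPM after induction. The induced S222A libraries were all above the uninduced ones, by a narrow gap. The log2 fold change of CMPK1 on S222A induction was 0.50 ± 0.22 (SE; 95% interval 0.03 to 0.98), which did not pass the edgeR test (adjusted p 0.232). With the term for the deepest libraries CMPK1 passed at 0.50 ± 0.14 (adjusted p 0.0161), and without S222A uninduced replicate 3 the value was 0.31 (adjusted p 0.491). On WT induction CMPK1 had a log2 fold change of 0.07 ± 0.22 (adjusted p 1).

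CDA, the enzyme that inactivates the drug, was the only gene of the 9 that passed the main edgeR test. Its CPM was 21.7, 20.86 and 20.02 in WT uninduced, 13.3, 12.33 and 12.11 in WT induced, 11.53, 13.95 and 16.43 in S222A uninduced and 2.08, 3.79 and 4.22 in S222A induced libraries. The S222A induced libraries were below all others and the WT uninduced ones above all others, and the remaining groups overlapped. The fall on S222A induction rested on 96, 34 and 15 counts against 6, 17 and 53, so counting error alone is wide in the shallow libraries. CDA was called lower on S222A induction (log2 -1.91 ± 0.27 SE, 95% interval -2.49 to -1.34, edgeR adjusted p 0.0015) and lower in S222A than in WT cells when both were induced (-1.82 ± 0.26, -2.39 to -1.26, adjusted p 0.0016), a 3.54-fold difference. Both comparisons use the same S222A induced libraries. CDA stayed called in all 15 alternatives of each, with log2 values of -2.26 to -1.73 and -2.06 to -1.64. The S222A induction value of CDA was -1.36 in the deepest libraries alone and -2.25 in the other 8.

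In the other comparisons CDA did not pass. On WT induction its 3 induced libraries were all below the 3 uninduced ones, with a log2 fold change of -0.72 ± 0.24 (95% interval -1.25 to -0.19, unadjusted p 0.011, edgeR adjusted p 1). Before induction CDA was 1.54-fold lower in the S222A line (log2 -0.63 ± 0.25, unadjusted p 0.0239, adjusted p 0.581), again without overlap. The fall on S222A induction exceeded that on WT induction by 1.20 ± 0.36 on the log2 scale (95% interval of the S222A minus WT difference -1.97 to -0.42), with unadjusted p 0.00524 and adjusted p 0.471 over all genes. A larger fall of CDA in the S222A line is therefore not a call of the test across all genes.

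Read against the background, 1 of the 9 genes was called on S222A induction, where 4.45% of all genes tested were called, and 1 of 9 between the induced lines, where 6.34% were. None of the 9 was called by edgeR on WT induction (background 0.00872%), in the difference of the inductions (0.0784%) or between the uninduced lines (0.392%). In each of these comparisons 1 of the 9, CDA, had an unadjusted p under 0.05, and DESeq2 and limma-voom also called 0. Groups did not overlap for 2 of 9 genes on S222A induction (CDA and CMPK1) against 27.5% of all genes, and for 2 of 9 between the induced lines (CDA and SLC29A1) against 28%. They did not overlap for 1 of 9 on WT induction against 5.79% and for 1 of 9 between the uninduced lines against 12.3%, CDA each time. With the term for the deepest libraries, 4 of 9 were called on S222A induction (CDA, SLC29A1, RRM1 and CMPK1) against 17.9% of all genes, and 2 of 9 between the induced lines (CDA and SLC29A1) against 21.6%. The median log2 fold change of the 9 was 0.05 on S222A induction and -0.06 on WT induction, beside 0.01 and 0.01 over all genes tested.

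**Figure D2:**
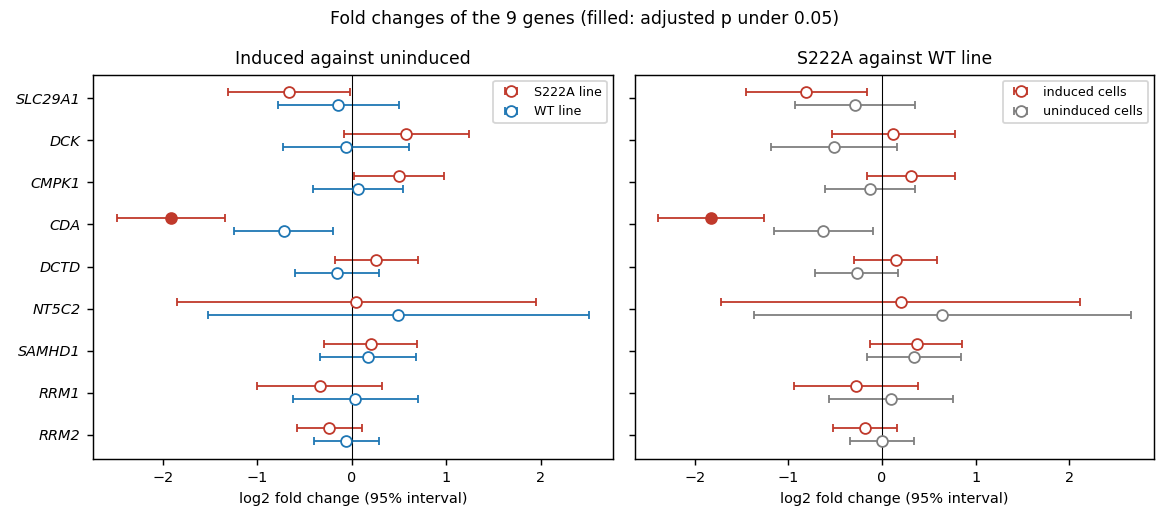
log2 fold changes (x axes) of the 9 genes with 95% intervals, by gene (y axis), for induction in each line (left) and for S222A against WT in induced and uninduced cells (right); filled points passed an adjusted p of 0.05. The filled points are CDA at -1.91 on S222A induction and at -1.82 between the induced lines.

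The balance of the activating kinase and the deaminase can be read within each library. The ratio of DCK to CDA CPM was 2.28, 2.35 and 3.76 in WT uninduced and 3.13, 4.82 and 5.54 in WT induced libraries. It was 3.51, 4.12 and 1.13 in S222A uninduced and 26.7, 18.5 and 13.2 in S222A induced libraries. The S222A induced libraries were above all others, and the other 3 groups overlapped. As mean log2 ± SD (n = 3), the DCK to CDA ratio was 1.44 ± 0.403, 2.13 ± 0.429, 1.34 ± 1.01 and 4.22 ± 0.507 in that order of groups. This ratio is given as a description, since CDA was known to differ, and it is not a comparison of the amounts of both RNAs.

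**Figure D3:**
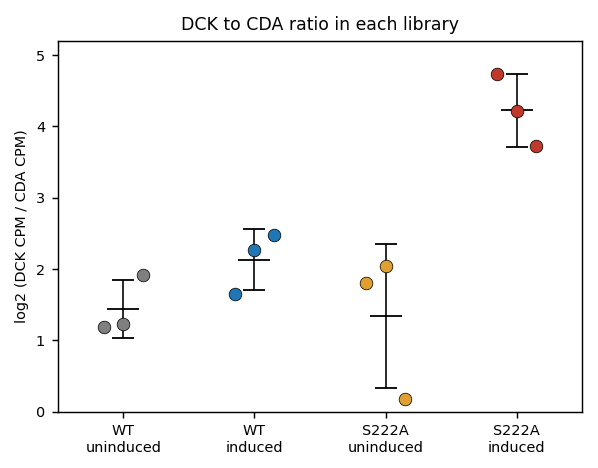
log2 of DCK CPM divided by CDA CPM (y axis) in each library by group (x axis), with the mean ± SD of 3. The S222A induced libraries lie at 3.72 to 4.74, above the highest other library at 2.47, and S222A uninduced replicate 3 is lowest at 0.18.

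The second deaminase did not follow CDA. DCTD, which deaminates deoxycytidylate and cytarabine monophosphate, was at 67.63, 77.07 and 54.74 CPM in WT uninduced and 65.92, 48.2 and 62.63 in WT induced libraries. In the S222A line it was at 60.18, 63.61 and 38.33 CPM uninduced and 65.11, 73.36 and 60.42 induced, so all groups overlapped. Its log2 fold change was 0.26 ± 0.20 (SE) on S222A induction (95% interval -0.18 to 0.70, edgeR adjusted p 0.557) and -0.16 ± 0.21 on WT induction. These intervals do not reach the fall of CDA on S222A induction.

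The enzymes that remove phosphates also gave no call. SAMHD1 was at 27.25, 22.6 and 30.64 CPM in WT uninduced, 24.85, 41.48 and 27.9 in WT induced, 29.19, 35.71 and 38.33 in S222A uninduced and 45.37, 41.03 and 31.01 in S222A induced libraries, and each induced group overlapped its uninduced group. Its log2 fold change was 0.20 ± 0.23 (SE) on S222A induction (95% interval -0.29 to 0.69, edgeR adjusted p 0.719), 0.17 ± 0.23 on WT induction and 0.37 ± 0.23 between the induced lines (adjusted p 0.39).

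NT5C2 varied most within groups. Its CPM was 16.15, 3.28 and 21.24 in WT uninduced, 4.97, 40.36 and 18.42 in WT induced, 7.21, 21.75 and 39.42 in S222A uninduced and 29.09, 28.76 and 6.38 in S222A induced libraries. The low value of each group belonged to its deepest library, and the other libraries were at 16.15 CPM or more. The log2 gap of the deepest library to the mean of the other 2 was -2.34, -2.36, -1.96 and -2.1 in the 4 groups. In the model with the term for the deepest libraries, 0.933% of the genes tested had a lower term than NT5C2 at -2.22. Its log2 fold change on S222A induction was 0.05 with an SE of 0.87, with a 95% interval of -1.85 to 1.95. Within the deepest libraries alone the value for NT5C2 was -0.17, and within the other 8 it was -0.02. S222A induced replicate 2, with a total of 4489036 counts, had NT5C2 at 28.76 CPM. WT uninduced replicate 2, the deepest of its group with 5412391 counts, had it at 3.28 CPM. Whether the NT5C2 gap comes from depth or from another feature of these libraries was not tested.

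The same 4 libraries were also extreme for other genes of the 9. They were the lowest of their group for SAMHD1 in 4 of 4 groups (log2 gaps of -0.47 to -0.34). They were the highest in 4 of 4 groups for RRM1 (0.66 to 0.88), SLC29A1 (0.55 to 0.84) and CMPK1 (0.24 to 0.57). For CDA the deepest library had no common place, with gaps of -0.38 to 0.51.

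**Figure D4:**
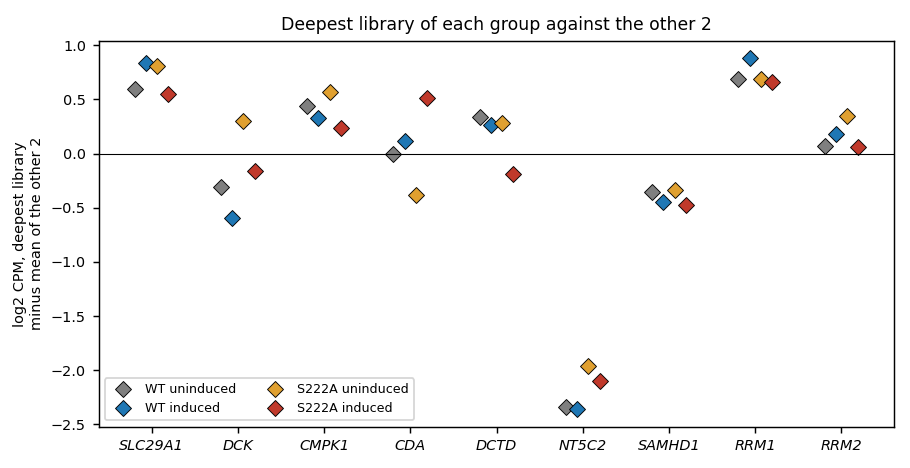
log2 CPM of the deepest library of each group minus the mean of the other 2 (y axis) for the 9 genes (x axis), with 1 diamond per group. All 4 NT5C2 values lie between -2.36 and -1.96, and those of RRM1 between 0.66 and 0.88.

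Ribonucleotide reductase was expressed in every library. RRM1 was at 256.38, 412.37 and 252.88 CPM in WT uninduced, 451.62, 228.69 and 262.9 in WT induced, 439.54, 257.74 and 285.82 in S222A uninduced and 209.19, 226.54 and 343.08 in S222A induced libraries. The groups overlapped, with the deepest library on top each time. The log2 fold change of RRM1 on S222A induction was -0.34 ± 0.31 (SE; 95% interval -1.001 to 0.324, edgeR adjusted p 0.626). With the term for the deepest libraries RRM1 was at -0.33 ± 0.11 and passed narrowly (adjusted p 0.0487). Without S222A uninduced replicate 1 it was -0.05 (adjusted p 0.965).

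RRM2, whose RNA rises in S phase, was at 162.51, 189.48 and 200.59 CPM in WT uninduced, 191.61, 161.43 and 176.58 in WT induced, 212.5, 184.69 and 151.12 in S222A uninduced and 162.43, 145.38 and 160.06 in S222A induced libraries. The groups compared overlapped. The log2 fold change of RRM2 was -0.24 ± 0.16 (SE; 95% interval -0.58 to 0.10, edgeR adjusted p 0.471) on S222A induction and -0.06 ± 0.16 on WT induction. Between the uninduced lines it was 0.00 ± 0.16 (-0.35 to 0.34).

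Across the 12 libraries the 9 genes fell into patterns that partly followed the deepest libraries. On log2 CPM, Pearson's r was -0.88 for NT5C2 with RRM1, 0.83 for NT5C2 with SAMHD1, 0.81 for SLC29A1 with RRM1 and -0.87 for SLC29A1 with SAMHD1 (n = 12 libraries, which share groups and include the deepest ones). CDA had r of 0.7 with SLC29A1 and -0.25 with DCK. DCTD and CMPK1 had r of 0.8. These values describe the libraries and carry no test.

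Among 10653 other genes, those with a pattern most like each of the 9, by Pearson's r of log2 CPM over the same 12 libraries, are named, up to 3 for each. For CDA they were NME1 (0.979), HAL (0.973) and ALDH1B1 (0.97), with log2 fold changes on S222A induction of -0.85, -1.21 and -1.19. For SLC29A1 they were MIS18A (0.989), FAM216A (0.979) and XPO5 (0.967). For DCK they were WDSUB1 (0.96), TRAPPC2P1 (0.948) and PDCD6IP (0.939), and for CMPK1 MOB1B (0.972), SDCBP (0.968) and SUN1 (0.958). DCTD was most like CALM2 (0.932), LINC00493 (0.924) and GNAI1 (0.921). NT5C2 was most like SUGP2 (0.98) and ARFGEF2 (0.979), and SAMHD1 most like MAP3K5 (0.966), ZNF720 (0.949) and ATG14 (0.948). RRM1 was closest to MFSD12 (0.982), KLF16 (0.979) and PSMB1 (0.976), and RRM2 to TRMT6 (0.909), RAD54L (0.89) and TRA2B (0.874). These r are the highest among 10653 genes over 12 libraries, so their size follows in part from the choice. SLC29A1, RRM1 and NT5C2 had terms for the deepest libraries of 0.695, 0.729 and -2.215. The part of these libraries in the likeness was not tested.

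In the wider nucleotide pathway 3 genes were called on S222A induction, NME1 among 13 other kinases tested, and DCTPP1 and ADA among 6 enzymes that cleanse the nucleotide pool. None was called among 4 other transporters, 4 other nucleotidases, 4 efflux pumps, 7 other reductase and thymidylate genes and 5 pyrimidine synthesis genes. Of all genes tested, 4.45% were called. Of the other nucleoside and nucleotide kinases, 1 of 13 tested fell on S222A induction, and it was NME1, a nucleoside diphosphate kinase that completes triphosphates. NME1 was at 265 ± 34.6 CPM (SD, n = 3) in S222A uninduced and 146 ± 10 CPM in S222A induced libraries, and at 294 ± 7.74 and 246 ± 15.3 CPM in the WT line. Its log2 fold change was -0.85 ± 0.14 (edgeR adjusted p 0.0047) on S222A induction and -0.75 ± 0.14 (adjusted p 0.00878) between the induced lines, the latter lost without S222A induced replicate 1 (adjusted p 0.0519). Its near-identical neighbour NME2 is listed at 0 in all 12 libraries, so how the reads of the pair were divided is uncertain. None of 4 other transporters tested was called (median log2 -0.53), and SLC28A3, a concentrative nucleoside carrier, had -0.97 ± 0.29 (adjusted p 0.0818). SLC28A3 was at 28.5 ± 0.136 CPM (SD, n = 3) in S222A uninduced and 14.3 ± 2.85 in S222A induced libraries. In the WT line it was at 14.6 ± 6.87 uninduced and 16 ± 2.55 induced, so the S222A induced mean was near the WT means. None of 4 other nucleotidases (median -0.15), 4 nucleotide efflux pumps (-0.06) or 7 other reductase and thymidylate genes (0.11) was called on S222A induction, beside a median of 0.01 for all genes. An edgeR unadjusted p under 0.05 was reached by 2 of the transporters, 0 of the nucleotidases, 1 of the pumps and 2 of the reductase and thymidylate genes, and DESeq2 and limma-voom called 0 in these 4 lists. The pump ABCB1 and the nucleotidase NT5C1A were at 0 counts.

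Of 6 enzymes that cleanse the nucleotide pool, 5 had negative values on S222A induction (median log2 -0.48), and 1 was called higher and 1 lower. ADA, an adenosine deaminase, rose from 19.1 ± 4.8 to 44.2 ± 2.87 CPM (SD, n = 3) on S222A induction, a log2 fold change of 1.21 ± 0.21 (edgeR adjusted p 0.00608), and kept its call without each library in turn. DCTPP1, which cleaves deoxycytidine triphosphate and its analogues, fell from 130 ± 15.7 to 74.9 ± 3.47 CPM, a log2 fold change of -0.79 ± 0.17 (adjusted p 0.0236). The DCTPP1 call was lost without S222A uninduced replicate 2 or 3 or any 1 of the S222A induced replicates (adjusted p 0.0637 to 0.0949). Between the induced lines DCTPP1 (-0.67 ± 0.17, adjusted p 0.0361) and DUT, the dUTPase (-0.58 ± 0.14, adjusted p 0.0316), were lower in S222A. Those calls were lost for DCTPP1 without WT induced replicate 1 or 3 or any S222A induced library (up to 0.135) and in the 8 libraries that are not the deepest (0.0845), and for DUT without WT induced replicate 2 or 3 or any S222A induced library (up to 0.137). Of 5 genes of de novo pyrimidine synthesis, 0 passed the edgeR test on S222A induction (median log2 -0.56; 4 had an unadjusted p under 0.05, and limma-voom called 1, DESeq2 0), and DHODH was lower in S222A between the induced lines (-0.97 ± 0.24, adjusted p 0.0335). DHODH lost its call without WT induced replicate 1 or 3 or any S222A induced library (up to 0.141), and also in the 8 libraries that are not the deepest (0.202).

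Cytarabine acts on DNA synthesis, and a minority of the genes for it were called lower on S222A induction, where 4.45% of all genes tested were called. All 20 S phase and proliferation genes had negative values, with a median log2 of -0.45, and 4 of them fell: MCM7 (-0.56 ± 0.13 SE, edgeR adjusted p 0.0332), MCM4 (-0.67 ± 0.16, 0.0358), MCM3 (-0.56 ± 0.14, 0.0425), all helicase subunits, and the cyclin CCNB1 (-0.66 ± 0.17, 0.0471). Of 11 replicative polymerase genes all 11 were negative (median -0.44) and POLA2, a subunit of polymerase alpha, fell (-0.87 ± 0.22, adjusted p 0.0402). Of 10 replication stress and checkpoint genes all 10 were negative (median -0.35) and the phosphatase CDC25A fell (-0.76 ± 0.16, adjusted p 0.0152). On WT induction the medians were -0.17, -0.08 and -0.06, and 0 of these genes passed by edgeR, DESeq2 or limma-voom or had an edgeR unadjusted p under 0.05.

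On S222A induction DESeq2 called 7 of the 20 S phase and proliferation genes and limma-voom 4, no fewer than edgeR. The edgeR calls were not firm when 1 library was left out, where calls over all genes also went from 511 to between 187 and 329. MCM7, MCM4, MCM3 and POLA2 each lost theirs without any 1 of the 6 S222A libraries (highest adjusted p 0.115, 0.126, 0.18 and 0.166). CCNB1 lost it without 5 of them, S222A uninduced replicate 1 being the exception (highest 0.167), and CDC25A without S222A uninduced replicate 1 or 2 or S222A induced replicate 2 or 3 (highest 0.0976). Between the induced lines MCM7 (-0.55 ± 0.13, edgeR adjusted p 0.0294), MCM4 (-0.66 ± 0.16, 0.0319) and CDT1, a licensing factor (-0.57 ± 0.15, 0.0364), were lower in S222A. Leaving out WT induced replicate 3 or any 1 S222A induced library ended each of these calls, as did WT induced replicate 2 for MCM7 and MCM4 and WT induced replicate 1 for CDT1 (highest adjusted p 0.0979, 0.134 and 0.156). In the 8 libraries that are not the deepest, MCM7 also lost its call on S222A induction (0.0643) and between the induced lines (0.0566), and CDT1 between the induced lines (0.0907). The summed CPM of the 20 S phase and proliferation genes was 4093.8 to 4252.9 in S222A induced libraries, 5472.6 to 6194 in S222A uninduced, 5348.7 to 5725.4 in WT uninduced and 5199.5 to 5640.6 in WT induced libraries. TOP2A, which was not called on S222A induction, made up the largest part of it. Its mean was 1670 CPM in S222A induced, 2320 in S222A uninduced, 1950 in WT uninduced and 2050 in WT induced libraries. The sum moved with CDA on S222A induction, and its part in that result was not tested.

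**Figure D5:**
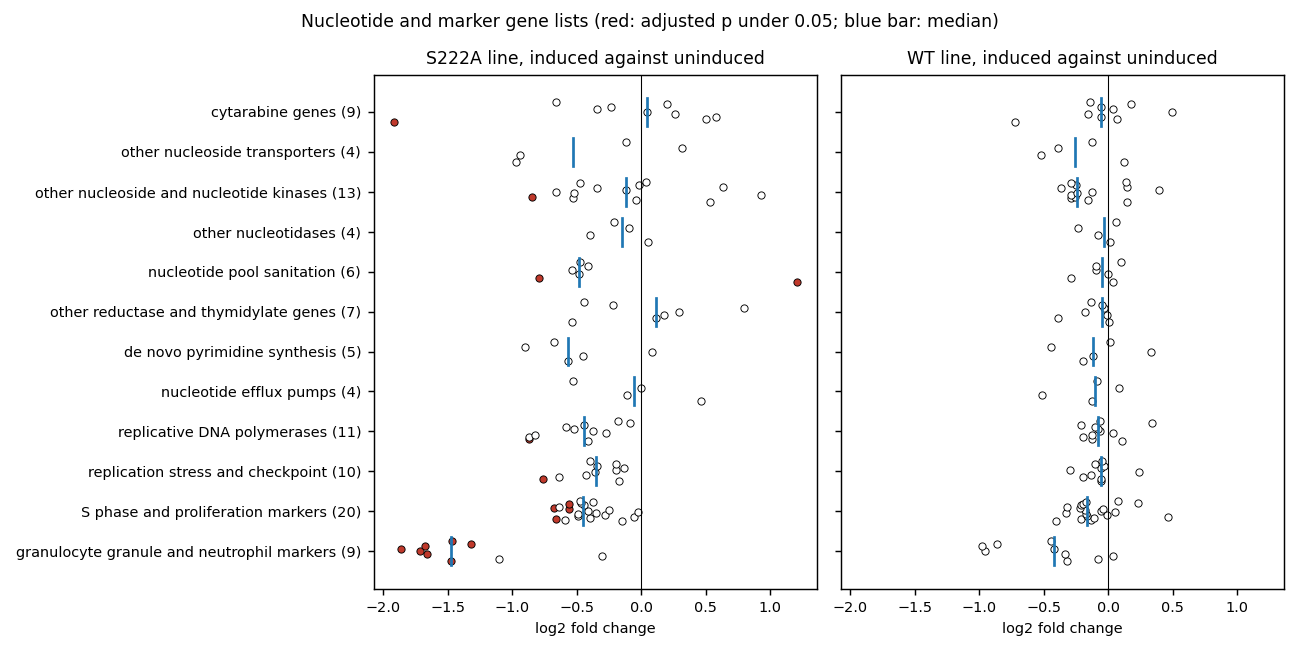
log2 fold changes (x axes) of the tested genes of each list (y axis, number tested in brackets) on induction of S222A (left) and WT (right), with genes past an adjusted p of 0.05 in red and list medians as blue bars. On S222A induction the granulocyte list has its median at -1.47 and the S phase and proliferation list at -0.45. On WT induction they are at -0.42 and -0.17.

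Granulocyte granule and neutrophil markers moved with CDA on S222A induction as well. Of the 15 markers 9 were tested, with a median log2 of -1.47 on S222A induction, beside 0.01 over all genes. Of these 9, 7 fell, where 4.45% of all genes tested were called. The leading ones were MS4A3 (-1.86 ± 0.17 SE, edgeR adjusted p 8.26e-05), CTSG (-1.66 ± 0.18, 0.00034), S100A9 (-1.47 ± 0.26, 0.00759) and PRTN3 (-1.68 ± 0.30, 0.00771), of which PRTN3 alone lost its call without 1 library (S222A uninduced replicate 1, adjusted p 0.0779), and also in the 8 libraries that are not the deepest (0.118). LTF and FCGR3B were at 0 counts in all libraries, and ELANE, LCN2, CAMP and MMP8 did not pass the filter on low counts. The summed CPM of the 15 was 535.1 to 547.9 in S222A induced, 1509 to 1610.5 in S222A uninduced, 913.9 to 1082 in WT uninduced and 733.4 to 839.2 in WT induced libraries, and its part in the CDA values was not tested. On WT induction 8 of the 9 tested markers were negative (median log2 -0.42), and 0 were called by edgeR, DESeq2 or limma-voom. An edgeR unadjusted p under 0.05 was reached there by 4 of them, PRTN3, S100A8, MS4A3 and MPO, and by 195 of all 11474 genes tested. In bulk RNA, fewer cells of a kind and less RNA per cell cannot be told apart. S100A9 was higher in S222A before induction (1.63 ± 0.27, adjusted p 0.0179), a call lost without WT uninduced replicate 1 or 3 or S222A uninduced replicate 2 or 3 (highest 0.138), whereas CDA was at its highest in WT uninduced libraries. Between the induced lines MS4A3 (-1.76 ± 0.17, adjusted p 5.48e-05) and MPO (-2.01 ± 0.41, 0.0124) were lower in S222A, MPO not without WT induced replicate 3 or S222A induced replicate 3 (0.0576 and 0.0525). MPO was at 0.69 to 3.34 CPM in S222A induced libraries, where 3 counts equalled 0.228 to 1.05 CPM, so its lowest value was near this limit. The other 7 tested were not called between the induced lines. Of these, 3 were in the other direction or near 0, with S100A8 at 0.75 ± 0.29 (adjusted p 0.152), S100A9 at 0.60 ± 0.27 (0.223) and AZU1 at -0.16 ± 0.27 (0.804). Over all genes tested, 6.34% were called between the induced lines.

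Of 10 monocyte markers 4 were tested and 0 were called by edgeR on S222A induction (median log2 -0.37; 1 had an unadjusted p under 0.05, and DESeq2 and limma-voom called 0), with CD68 at 0 counts. Their summed CPM was 33.8 to 39.6 in S222A induced libraries and 24.7 to 49 over the others. Among markers of other cells, erythroid genes summed to at most 0.7 CPM, fibroblast genes to at most 5.2 and B cell genes to at most 11.6. The 8 T cell genes summed to 50.7 to 87.8 CPM in S222A induced and 15.1 to 27 CPM in all other libraries. Of the 8, 2 were tested, CD4 and TRAC. CD4 had means of 11.8 CPM in WT uninduced, 13.5 in WT induced, 16.3 in S222A uninduced and 20.4 in S222A induced libraries. The TRAC means were 2.93, 7.55, 4.72 and 44.3 CPM in that order. TRAC, a T cell receptor gene, thus carried most of the sum in S222A induced libraries only (log2 3.13 ± 0.58, edgeR adjusted p 0.00923 on S222A induction, and 2.33 ± 0.53, 0.0226, between the induced lines), while CD3E had at most 1 count in any library. The TRAC calls were lost without S222A uninduced replicate 1 or 2 (0.053 and 0.0578), and, between the induced lines, without WT induced replicate 2 or 3 or any S222A induced library (up to 0.107).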

How the data were processed

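RNA sequencing libraries were made from 12 samples with a TruSeq kit, per the labels' protocols. Raw, whole-number counts by gene symbol were deposited as 1 table. The submitters' processing notes list STAR 2.4, HTSeq 0.6.1, DESeq2 and build hg19. For strand setting and annotation release, nothing is given in the sources used here. The last 2 names of the header share a field, so columns were matched by their names in order, and 0 sample columns were left unmapped.

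From the counts, genes were kept by edgeR's filterByExpr (minimum count 10), which left 99.47% of counts. All 12 libraries entered 1 model of 4 group means (TMM factors, 8 residual degrees of freedom, biological coefficient of variation 24.8%) and 5 comparisons were tested by robust quasi-likelihood F tests in edgeR 4.0.16 (R 4.3.3), with Benjamini-Hochberg adjustment over all 11474 genes. Genes with an adjusted p under 0.05 are called. CPM use TMM factors, and log2 CPM a prior count of 2. SE is the absolute log2 fold change over the square root of F. Pairs of libraries within a group differed beyond sampling noise (chi-square per degree of freedom 2.64 to 35.22). DESeq2 1.42.0 and limma 3.58.1 served as alternatives. The members and the 16 pathway and marker lists were chosen with earlier results of these data known. Named are all 9 genes, up to 4 called genes with the smallest adjusted p per list and comparison, and the 3 genes most like each of the 9 (mean of at least 1 log2 CPM, no clone-style name), of which 1 is not reported here. Exon lengths are unions of GENCODE 29 exons. Protein sequences were not used here.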

Additional observations from a re-analysis of the deposited data

Results flagged for a closer look

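MS4A3, a granulocyte lineage marker, passed the test of the difference between the lines' responses to induction, which is why it is listed here. It ranged from 193.31 to 236.4 CPM in S222A uninduced, from 59.57 to 62.43 in S222A induced, from 250.32 to 325.26 in WT uninduced and from 178.24 to 233.26 CPM in WT induced libraries. The S222A minus WT difference of the log2 fold changes was -1.44 ± 0.23 (SE; edgeR adjusted p 0.0438). Without 1 library in turn this call for MS4A3 was lost in 11 of 12 cases, all but WT uninduced replicate 2, with adjusted p between 0.0651 (WT induced replicate 2) and 0.248 (WT uninduced replicate 1).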

How the results depend on the processing

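Each of the 45 values (9 genes in 5 comparisons) was recomputed under other size factors, no filter, DESeq2, limma-voom, the compared groups alone, a replicate block, a term for the deepest libraries, the 8 other libraries, and without each library in turn, 720 values in all. No call was lost and 6 were gained: SLC29A1 in 4, RRM1 and CMPK1 in 1 each. The number of the 9 called was 4 on S222A induction with the term for the deepest libraries, and 2 between the induced lines with that term, with no filter and in the 8 other libraries. Signs changed in 47 values, 0 of them with an unadjusted p under 0.05. The largest adjusted p of CDA over its alternatives was 0.0125 on S222A induction and 0.018 between the induced lines. Of the 26 calls named for pathway and marker genes, 20 were lost under some alternative and 6 under none. Over all genes, calls on S222A induction numbered 511, 187 to 329 without 1 library, 235 with the block and 2052 with the term for the deepest libraries. Between the induced lines they numbered 727, 249 to 582, 350 and 2480. Correlations of same-numbered deviations from the group mean ran from -0.53 to 0.64, and 2 of 12 libraries were closest to their own number. The value of 0.64 joined WT induced replicate 1 and S222A uninduced replicate 1, both the deepest of their groups. The deepest libraries stood apart and do not all carry the same number, so whether replicate numbers pair the libraries cannot be decided. With the replicate block CDA was at -1.97 on S222A induction (adjusted p 0.00742), 0 of the 45 calls changed, 1 of the 9 genes was called there, and 14 of the 26 other calls were lost. Depth limits the precision of CDA in the shallow libraries, with 6 counts in S222A induced replicate 1.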
